A study of Mus musculus with 18 samples.

Results

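CAR and PXR, encoded by Nr1i3 and Nr1i2, are nuclear receptors of the liver, and they are described here with the cytochrome P450 genes Cyp2b10, Cyp2c29, Cyp2c37, Cyp2c38, Cyp3a11 and Cyp3a13, the P450 oxidoreductase gene Por and the haem synthesis gene Alas1. The 10 genes, and the gene lists used below, were chosen by name with earlier results of these data known. All probe sets that carry 1 of the 10 symbols alone were used. This gave 13 of 45037 probe sets, for 9 of the 18193 genes so measured. Por was not analysed here. Liver RNA was taken from male mice of the inbred strain C57BL/6J, sampled at 62 weeks of age, and was hybridised to Affymetrix Mouse Genome 430 2.0 arrays, with 1 mouse on each of 18 arrays. The 6 groups held 3 arrays each and differed in diet and in what was added to it from the age of 5 weeks. HF+CR mice were given a diet with 60% fat in an amount 30% under that eaten freely, HF+Ex mice ate this diet freely and had a running wheel, and HF mice ate it freely without a wheel. LF+CR, LF+Ex and LF mice were kept in the same 3 ways on a diet with 10% fat. All mice were housed alone, running was voluntary, and the wheels were locked at first for acclimation. Neither the hour of sampling nor whether the mice had eaten is given. The design asks what dietary fat, restriction and running do to liver transcripts in ageing mice, and whether restriction or running acts differently on the 2 diets.

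CAR and PXR bind foreign chemicals and endogenous steroids and bile acids, pair with the retinoid X receptor RXR, and switch on genes for the uptake, oxidation, conjugation and export of such compounds. Their best known targets in mouse liver are Cyp2b10 for CAR and Cyp3a11 for PXR, and each receptor can act on the other's targets. P450 enzymes carry haem, whose synthesis starts with the enzyme encoded by Alas1, and take their electrons from the oxidoreductase encoded by Por.

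The promoters of 4 cytochrome genes are shown because the results turn on them: Cyp2c38, which passed the test in 5 of 9 comparisons, its neighbour in the Cyp2c cluster Cyp2c29, which passed in none, and the textbook targets Cyp2b10 and Cyp3a11. Each sequence is the RefSeq stretch of the GRCm38.p6 build, 5′ to 3′ on the gene's strand, that ends just before the outermost start annotated for the gene, and is at most 250 bases long. Capitals mark matches on either strand to AGGTCA, the core letters that many nuclear receptors bind, to its variant in CAR and PXR elements, AGTTCA, to the site of PAR bZip factors, TTATGTAA, and to the TATA box letters TATAAA.
Cyp2c38: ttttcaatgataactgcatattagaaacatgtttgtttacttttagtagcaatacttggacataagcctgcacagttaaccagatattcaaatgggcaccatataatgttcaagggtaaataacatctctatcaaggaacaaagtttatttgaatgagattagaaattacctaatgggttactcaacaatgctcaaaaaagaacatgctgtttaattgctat
Cyp2c29: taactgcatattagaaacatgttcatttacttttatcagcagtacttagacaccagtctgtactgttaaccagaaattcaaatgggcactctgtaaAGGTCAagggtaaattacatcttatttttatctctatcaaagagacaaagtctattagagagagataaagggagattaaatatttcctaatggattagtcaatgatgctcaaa
Cyp2b10: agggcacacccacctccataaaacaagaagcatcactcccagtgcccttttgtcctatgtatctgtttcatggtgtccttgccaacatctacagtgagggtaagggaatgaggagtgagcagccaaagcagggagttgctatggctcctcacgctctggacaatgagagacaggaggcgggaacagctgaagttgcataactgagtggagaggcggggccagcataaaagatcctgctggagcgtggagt
Cyp3a11: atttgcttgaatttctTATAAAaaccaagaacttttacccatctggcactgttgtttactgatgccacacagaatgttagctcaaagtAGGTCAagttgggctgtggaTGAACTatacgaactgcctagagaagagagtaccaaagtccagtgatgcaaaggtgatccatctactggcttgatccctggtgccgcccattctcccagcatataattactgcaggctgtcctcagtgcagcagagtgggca
The Cyp2c38 stretch lies at chr19:39463104-39463325 on the minus strand and the Cyp2c29 stretch at chr19:39286835-39287043 on the plus strand. The Cyp2b10 stretch lies at chr7:25897408-25897657 on the plus strand and the Cyp3a11 stretch at chr5:145879855-145880104 on the minus strand. The Cyp2c38 and Cyp2c29 stretches were 84% identical over 187 aligned bases, and the other pairs among the 4 stretches shown were 43.5% to 50.2% identical. Cyp2c29 held 1 match to AGGTCA. Cyp3a11 held 1 match to each motif but the PAR bZip site, and Cyp2b10 and Cyp2c38 held no match to any of the 4. Of 32851 mouse promoter stretches of 250 bases, 14% held the core letters, 11.8% the variant, 0.819% the PAR bZip site and 12.4% the TATA box letters. The stretches shown are 209 to 250 bases long, so that 2 are shorter than these windows. These matches are descriptions of the letters and not mapped binding sites. Bases farther upstream or inside the genes were not searched, so that a stretch without a match does not mean a gene without receptor sites.

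Levels are intensities of a probe set on a linear scale as deposited, and levels of different probe sets cannot be set against each other. Array means lay between 305 and 308. Of 18193 genes 14198 were tested, among them all 9 measured genes of the set, and the other 3995 did not lie above the 40th percentile of an array (an intensity of 88.2 to 97.6, the dim threshold) on 3 arrays. All 7 hepatocyte markers on the array lay above it in all 18 mice. Transcripts of pancreatic digestive enzymes stood out on HF+Ex 1, LF+CR 1, LF+Ex 3 and LF 1, where the colipase gene Clps read 221 to 729.6, against 45.9 to 53.1 on the other arrays. HF 1, HF+Ex 3 and LF+CR 2 lay farthest from the other arrays along the first principal component (26.6% of the variance) and are called outlying here. The number of 3 was fixed without a cut-off. The difference of log2 Arntl and log2 Dbp, clock genes of opposite daily phase, lay between -2.57 and -0.66 on HF+CR 3, LF+CR 2, LF+Ex 3 and LF 1 and between -4.32 and -2.84 on the others. Fold changes are differences of log2(intensity + 16), which understates changes of dim genes, and a gene was counted as changed at a limma adjusted p under 0.05 over all genes tested. Precision is limited by the number of arrays, with a median SE of 0.0853 over the log2 fold changes of all genes.

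Genes that passed the test under calorie restriction were lower on the high-fat diet and higher on the low-fat diet. In HF+CR against HF livers 3 of 9 genes fell (Cyp2c38, Nr1i2 and Alas1) and none rose, against 6.09% of all genes changed, 3.54% higher and 2.55% lower. In LF+CR against LF livers 2 of 9 rose (Cyp2b10 and Cyp2c38) and none fell, against 5.57% of all genes, 2.3% higher and 3.27% lower. The groups did not overlap for 6 of 9 genes in the first comparison, against 31.3% of all genes, and for 4 of 9 in the second, against 20.2%. The median log2 fold change of the 9 genes was -0.44 in HF+CR against HF livers, where that of all genes was 0.04, and -0.08 in LF+CR against LF livers, where that of all genes was -0.01. Without the 4 arrays with pancreatic transcripts 3 and 1 of the 9 genes passed in these 2 comparisons, and without the 3 outlying arrays 2 and 0 did. Those 2 were Cyp2c38 and Nr1i3, since Nr1i2 and Alas1 were lost and Nr1i3 newly passed. The 2 comparisons share no mice with each other, but each shares mice with the comparisons of diets and of running. In a bulk sample fewer cells of a type and less RNA per cell cannot be told apart.

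**Figure D1:**
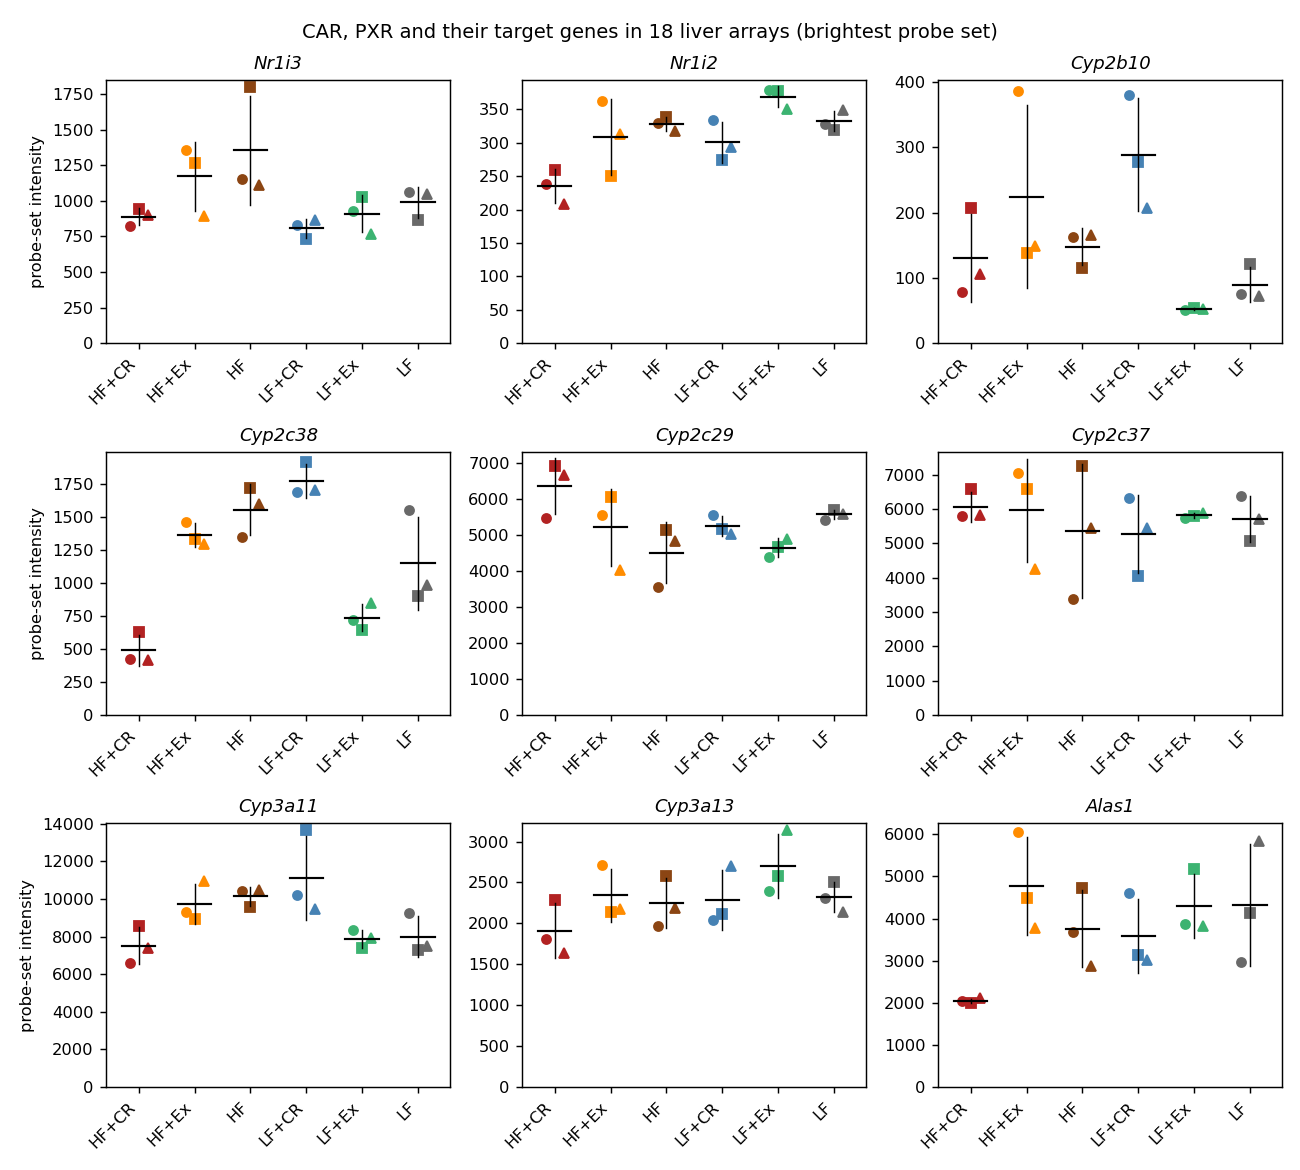
Probe-set intensity (linear axis from 0) of the 9 measured genes in the 6 groups, 1 point a mouse (circle, square and triangle for replicates 1, 2 and 3), with the mean as a bar and the SD as a line (n = 3). Cyp2c38 and Alas1 are lowest in HF+CR, where Alas1 lies between 1996 and 2105, while Cyp2b10 is highest on 1 HF+Ex and 1 LF+CR array.

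Of the 2 receptor genes Nr1i2 passed the test once, in HF+CR against HF livers, and Nr1i3 in no comparison. Nr1i2, read by its brighter probe set 1451807_at, was at 238, 259.6 and 208 in HF+CR livers, against 329.9, 338 and 317 in HF livers. All 3 HF+CR mice lay under all 3 HF mice. Nr1i2 fell by 0.46 on the log2 scale in HF+CR (SE 0.108, adjusted p = 0.0211), but its other probe set, 1425723_at, read 267, 261 and 231 in HF+CR livers, against 249, 297 and 261 in HF livers, where the groups overlap. That probe set gave a log2 fold change of -0.08 (SE 0.0779, adjusted p = 0.531 with all probe sets in the fit), so that the 2 probe sets of the gene disagree. The call on 1451807_at was lost without HF 1, HF 2, HF 3, HF+CR 1 or HF+CR 3, one at a time (adjusted p = 0.0505 to 0.0789), and with the mean of both probe sets (0.0612) and without the outlying arrays (0.0643).

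Across the other groups 1451807_at read 363, 249.8 and 313 in HF+Ex, 334, 274 and 293 in LF+CR, 379, 378 and 350.1 in LF+Ex and 328, 319.6 and 348 in LF livers. By group means Nr1i2 ran from LF+Ex (368.9 ± 16.3) through LF (332 ± 14.8), HF (328 ± 10.5), HF+Ex (308 ± 56.6) and LF+CR (300.3 ± 30.5) to HF+CR (235 ± 26; SD, n = 3 each). Neighbours in this order from LF to LF+CR overlap, whereas HF+CR lies under the LF+CR mice and LF+Ex above the LF mice. None of these neighbouring pairs that was tested passed the test: the log2 fold change was -0.33 for HF+CR against LF+CR (adjusted p = 0.0662) and 0.15 for LF+Ex against LF (adjusted p = 1.00).

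Nr1i3, measured by 1 probe set, was at 825, 946 and 899.8 in HF+CR livers and at 1154, 1797 and 1114 in HF livers. The HF+CR mice lay under all HF mice, and HF 2 stood above every other array of the series. The log2 fold change was -0.57 (SE 0.174), with an adjusted p of 0.0669, so that the gene did not pass the test. Under 3 of 14 other alternatives it passed: with centring (adjusted p = 0.0422), with array weights (0.0497) and without the outlying arrays (0.046). With 1 array left out the call did not change. Nr1i3 read 829, 734 and 863 in LF+CR livers, against 1059, 866 and 1048 in LF livers, groups that lie close together without overlapping (log2 -0.29, adjusted p = 0.432). It lay at 1354, 1265 and 896 in HF+Ex and at 929, 1029 and 769 in LF+Ex livers, which overlap.

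Cyp2c38, which encodes an arachidonic acid epoxygenase of the Cyp2c family, had the lowest adjusted p of the 9 genes in HF+CR against HF livers. It read 428, 626 and 417 in HF+CR livers, against 1345, 1722 and 1595 in HF livers. The highest HF+CR mouse read 626 and the lowest HF mouse 1345, and the group means were 490.1 ± 118 and 1554 ± 192 (SD, n = 3 each). Cyp2c38 fell by 1.65 on the log2 scale (SE 0.18, 95% interval -2.03 to -1.27, adjusted p = 0.000169), and it stayed past the threshold under every alternative that was run, with values between -1.83 and -1.55.

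On the low-fat diet Cyp2c38 moved the other way. It read 1690.3, 1918 and 1701 in LF+CR livers, against 1555, 902 and 987 in LF livers. The LF+CR mice lay above all LF mice, but LF 1 came close to them. Cyp2c38 rose by 0.66 on the log2 scale (SE 0.18, adjusted p = 0.0443), a call that was lost without LF 2, LF 3 or any 1 of the LF+CR mice (adjusted p = 0.0672 to 0.169). It was also lost with centring (0.0559), without a dim filter (0.0571), with the replicate number as a block (0.0745), without the outlying arrays (0.15) and in a fit on the compared groups only (0.183). By group means Cyp2c38 ran from LF+CR (1770 ± 128) through HF (1554 ± 192), HF+Ex (1362 ± 90.3), LF (1148 ± 355) and LF+Ex (736 ± 101) to HF+CR (490.1 ± 118; SD, n = 3 each). Neighbours in this order from LF+CR to LF overlap, and LF, LF+Ex and HF+CR do not.

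Cyp2b10, the classical CAR target, which phenobarbital is known to induce, was dim, and it passed the test for restriction on the low-fat diet. The brightest of its probe sets, 1425645_s_at, read 379.6, 278 and 208 in LF+CR livers, against 76.1, 121 and 72.1 in LF livers. All LF+CR mice were above all LF mice, of which 2 lay under the dim threshold of their arrays. Cyp2b10 rose by 1.52 on the log2 scale (SE 0.343, 95% interval 0.79 to 2.25, adjusted p = 0.0164), a size that depends in part on the background. The adjusted p was 0.0577 without LF 1, 0.0686 without LF 3, 0.0787 without LF+CR 1, 0.0928 without the 4 arrays with pancreatic transcripts and 0.0516 without the outlying arrays. In HF+CR livers the probe set read 78.9, 207 and 105, against 163, 116 and 165 in HF livers. These groups overlap, with HF+CR 2 above the HF mice and the other HF+CR mice under them (log2 -0.24, SE 0.343, adjusted p = 0.676).

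Cyp3a11, the classical PXR target and the main drug-oxidising Cyp3a enzyme of mouse liver, lay above the dim threshold on all 18 arrays. It read 6594, 8545 and 7377 in HF+CR livers, against 10408, 9573 and 10463 in HF livers. On the low-fat diet it read 10224, 13666 and 9450.0 in LF+CR livers, against 9227, 7279.7 and 7476 in LF livers. Neither pair of groups overlaps, and the restricted mice were the lower ones on the high-fat diet and the higher ones on the low-fat diet. Neither difference passed the test on its own, with a log2 fold change of -0.44 in HF+CR against HF livers (SE 0.132, adjusted p = 0.0606) and 0.46 in LF+CR against LF livers (adjusted p = 0.0517).

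Alas1, the first and rate-limiting gene of haem synthesis, was lowest in HF+CR livers. It read 2031, 1996 and 2105 there, against 3685, 4721 and 2881 in HF livers. The HF+CR mice lay close together and under every other array of the series, while HF livers spread widely (2044 ± 55.3 and 3762 ± 922, SD, n = 3 each). Alas1 fell by 0.85 on the log2 scale (SE 0.24, adjusted p = 0.0485), and its other probe set, 1455282_x_at, gave -0.82 (adjusted p = 0.0527 with all probe sets in the fit). The call was lost without HF 1, HF 2 or any 1 of the HF+CR mice (adjusted p = 0.0723 to 0.15). It was also lost in 7 of 14 other alternatives (0.0501 to 0.111), with the highest adjusted p without the outlying arrays. In the other groups Alas1 read 6059.7, 4494 and 3765 in HF+Ex, 4599, 3129 and 3024 in LF+CR, 3880.1, 5180.0 and 3833 in LF+Ex and 2966, 4124 and 5847 in LF livers. All of these groups overlap with each other.

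Cyp2c29, which encodes another arachidonic acid epoxygenase, read 5474, 6937 and 6689.9 in HF+CR livers, against 3560.5, 5146 and 4854 in HF livers. Unlike Cyp2c38 it was higher in every HF+CR mouse than in any HF mouse, but the log2 fold change of 0.50 (SE 0.144) missed the threshold (adjusted p = 0.0504). It read 5574, 5174 and 5043 in LF+CR livers and 4384, 4680.5 and 4898 in LF+Ex livers, against 5438, 5712 and 5585 in LF livers. The LF+CR mice overlap with the LF mice (log2 -0.08, adjusted p = 0.844), and the LF+Ex mice lay under them (log2 -0.26, adjusted p = 1.00). Cyp2c37, an arachidonic acid hydroxylase gene, ranged from 3365 to 7262, both in HF livers, and Cyp3a13, a Cyp3a gene of liver and intestine, from 1642 in an HF+CR to 3144 in an LF+Ex liver. Over all 9 comparisons neither passed the test in any, with log2 fold changes between -0.15 and 0.38 for Cyp2c37 and between -0.26 and 0.21 for Cyp3a13.

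The effect of restriction itself was then compared between the diets, as HF+CR minus HF less LF+CR minus LF. It differed for 3 of 9 genes, all lower on the high-fat diet, against 5.74% of all genes, 3.35% higher and 2.39% lower. The difference was -2.31 for Cyp2c38 (SE 0.255, 95% interval -2.85 to -1.77, adjusted p = 9.88e-05), -0.91 for Cyp3a11 (SE 0.187, 95% interval -1.30 to -0.51, adjusted p = 0.011) and -1.76 for Cyp2b10 (SE 0.486, 95% interval -2.79 to -0.73, adjusted p = 0.0443). The size for Cyp2b10 depends in part on the background, since 2 LF mice and 1 HF+CR mouse lay under the dim threshold. Cyp2c38 and Cyp3a11 stayed past the threshold under every alternative run. The Cyp2b10 difference was lost without any 1 of LF 1, LF 3, LF+CR 1, LF+CR 2, HF 1, HF 3, HF+CR 1 and HF+CR 3 (adjusted p = 0.0812 to 0.111). It was also lost in 6 of 14 other alternatives (0.0558 to 0.153): with an offset of 64, without a dim filter, with the mean of its probe sets (-1.14), with the replicate number as a block, and without the pancreatic or the outlying arrays. Its other probe sets, 1451787_at (-0.51, adjusted p = 0.275) and 1422257_s_at (adjusted p = 0.147), did not pass, with all probe sets in the fit. The difference was -0.32 for Nr1i2 (adjusted p = 0.216), -0.28 for Nr1i3 (adjusted p = 0.501) and -0.61 for Alas1 (adjusted p = 0.289), and none of these passed.

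**Figure D2:**
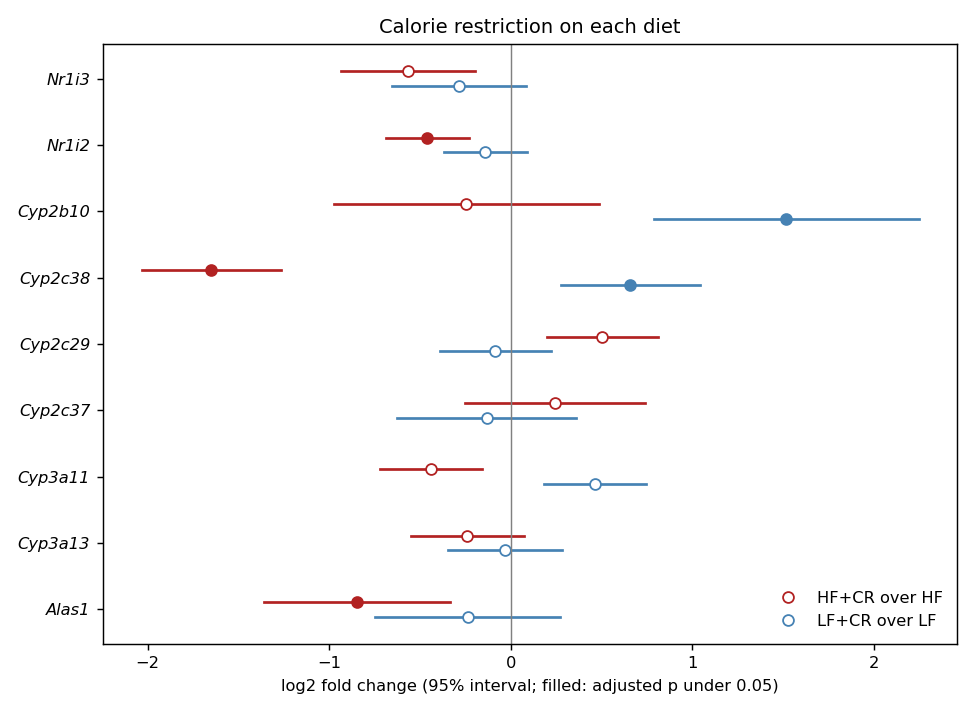
Log2 fold change of restricted over freely fed mice (horizontal axis) for each of the 9 genes, on the high-fat diet (red, HF+CR over HF) and the low-fat diet (blue, LF+CR over LF), with 95% intervals of the limma fit (n = 3 a group); filled points passed the test. Cyp2c38 lies at -1.65 on the high-fat and at 0.66 on the low-fat diet. The values of Cyp2b10 depend in part on the background.

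Markers of other cells and zones moved with these groups in part. Among all 14198 genes 3626 had an unadjusted p under 0.05 in HF+CR against HF livers, and 6.09% passed the limma test (3.54% higher, 2.55% lower). Of 10 Kupffer cell markers 0 passed the limma test in HF+CR against HF livers, but 7 had an unadjusted p under 0.05. Their median log2 fold change was -0.67 and their summed intensity was 6469 to 7671 in HF+CR, against 8291 to 12680 in HF livers. Of 10 pericentral markers, which mark the zone where many of these cytochromes are expressed, 1 rose and 2 fell, and their sum was 29210 to 31300 in HF+CR and 28450 to 31840 in HF livers. Of 9 pancreatic acinar markers Cela1 alone rose in HF+CR (log2 1.81, adjusted p = 0.0036), with sums of 1989 to 2557 in HF+CR and 1084 to 1155 in HF livers. Of 8 liver endothelial markers Lyve1 and Fcgr2b fell in HF+CR (log2 -1.10 and -0.31, adjusted p = 0.0099 and 0.0266), and the sums, 4034 to 4265 in HF+CR and 4526 to 4789 in HF livers, do not overlap. Of 7 periportal markers Cdh1 rose and Hsd17b13 fell in HF+CR (log2 1.62 and -0.62), with overlapping sums. Of 8 stellate cell markers 0 passed the limma test and 1 had an unadjusted p under 0.05, but their sums, 6443 to 6894 in HF+CR and 7254 to 7739 in HF livers, do not overlap. In LF+CR against LF livers no pericentral, periportal, endothelial, Kupffer or stellate marker passed the limma test, against 5.57% of all genes. There 2 of 10 pericentral, 2 of 7 periportal, 1 of 8 endothelial, 0 of 10 Kupffer and 0 of 8 stellate markers had an unadjusted p under 0.05. Among all 14198 genes 2646 did. The pericentral sum was 24900 to 26590 in LF+CR and 27160 to 28070 in LF livers, which do not overlap. The part of these cells in the results was not tested.

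Other P450 genes of the subfamilies 2a, 2b, 2c and 3a gave calls in the same 2 directions, with 1 exception. Of 11 tested, 4 rose and none fell in LF+CR against LF livers, against 2.3% of all genes higher and 3.27% lower. In HF+CR against HF livers 1 rose and 4 fell, against 3.54% of all genes higher and 2.55% lower. The restriction effect on these P450 genes differed between the diets for 4 of 11, all lower on the high-fat diet. The same test passed for 5.74% of all genes, 3.35% higher and 2.39% lower. The median log2 fold change of the 11 P450 genes was 0.20 in LF+CR and 0.07 in HF+CR, beside -0.01 and 0.04 for all genes. Cyp2b9, a Cyp2b gene known as female-typical in mouse liver, read 3055, 1607 and 2785 in LF+CR livers, against 189, 432 and 227 in LF livers. It read 849, 583 and 753 in HF+CR livers, against 1565, 1966 and 1925 in HF livers. Neither of the compared pairs overlaps, and the log2 fold change was 3.10 on the low-fat diet (adjusted p = 9.29e-06) and -1.31 on the high-fat diet (adjusted p = 0.0103). Cyp2b13, a close relative, was under the dim threshold in all HF+CR and all LF mice, and was at least 5.38-fold higher in LF+CR than in LF livers (adjusted p = 0.000155) and at least 3.24-fold lower in HF+CR than in HF livers (adjusted p = 0.00401). Cyp2c55 rose in LF+CR livers (log2 1.12, adjusted p = 0.0154), and Cyp2c70, a bile acid hydroxylase gene, rose in HF+CR livers (log2 0.48, adjusted p = 0.0337).

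The list of 21 conjugation genes holds genes that CAR and PXR are known to induce. It also takes in other enzymes, such as the carboxylesterase Ces1g and the aldehyde dehydrogenase Aldh1a1. Of these 21 genes 5 rose in LF+CR against LF livers. In HF+CR against HF livers 1 fell, a share under that of all genes changed. The restriction effect was lower on the high-fat diet for 7 of the conjugation genes and higher for 1, against 2.39% and 3.35% of all genes. Gsta2, a glutathione transferase gene, rose by 1.18 in LF+CR (adjusted p = 0.031) and fell by 1.53 in HF+CR on the log2 scale (adjusted p = 0.00853). It ranged widely in LF+CR livers, from 1119 to 3223, against 545.1 to 1013 in LF livers. Gstm3 rose by 1.77 in LF+CR (adjusted p = 0.0144), where it read 4072, 9869.8 and 2979, against 1579.5, 1363 and 1358 in LF livers, so that LF+CR 2 stood far above its group. Of 8 transporter genes 3 rose in LF+CR against LF livers, Abcc4, Slco1a4 and Abcb1a, and 1, Abcc3, fell in HF+CR against HF livers. Slco1a4, an organic anion uptake carrier, was higher by 0.97 in LF+CR (adjusted p = 0.0301) and its restriction effect was lower on the high-fat diet (difference -1.59, adjusted p = 0.0147). The median log2 fold change was 0.37 in LF+CR and -0.15 in HF+CR for the conjugation genes, and 0.14 and -0.24 for the transporters. The counts of changed genes stand against 5.57% of all genes in LF+CR (2.3% higher, 3.27% lower) and 6.09% in HF+CR (3.54% higher, 2.55% lower).

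**Figure D3:**
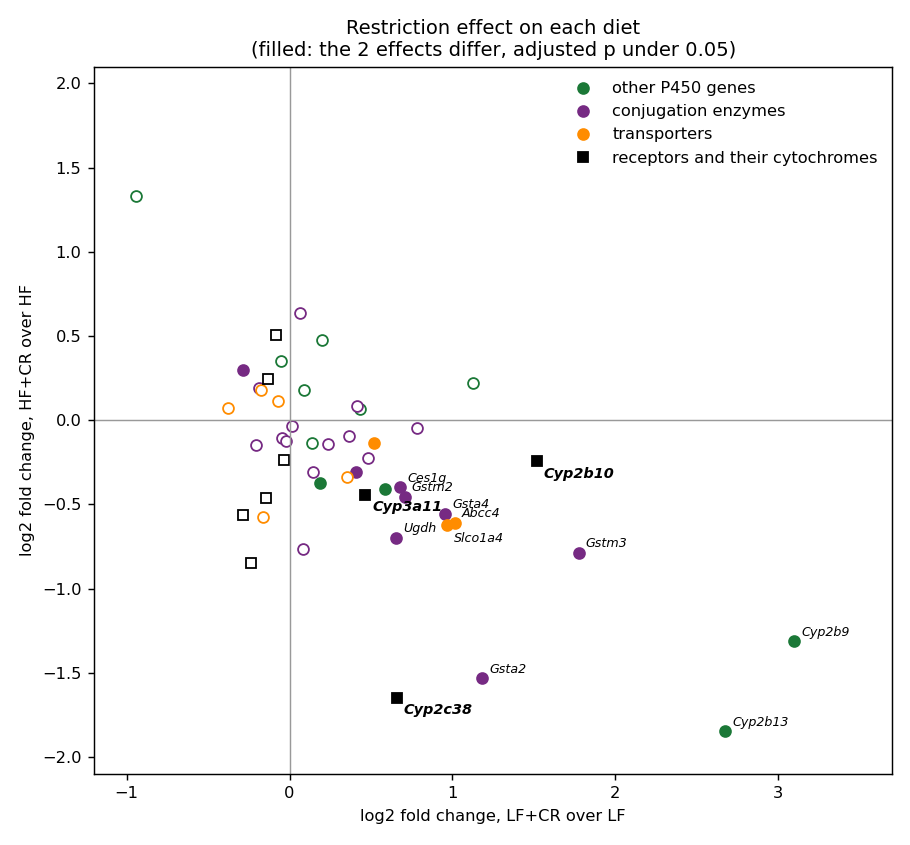
Log2 fold change of HF+CR over HF (vertical) against that of LF+CR over LF (horizontal) for the 9 genes (black squares), other P450 genes (green), the conjugation list (purple) and transporters (orange). Filled symbols mark genes whose 2 effects differ at an adjusted p under 0.05, and Cyp2b9 lies farthest right, at 3.10 and -1.31. Values of Cyp2b13 depend on the background, and those of Cyp2b10 do so in part.

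Of 15 partners and modulators of the receptors 0 passed the limma test in LF+CR against LF livers. An unadjusted p under 0.05 was found for 6 of them, against 2646 of all 14198 genes. In HF+CR against HF livers 1 of 15 rose, a share near the 6.09% of all genes. It was Egfr, the receptor whose signalling is known to hold CAR inactive in mouse hepatocytes. It read 3117, 2729.6 and 2182 in HF+CR livers, against 372, 456 and 692 in HF livers, and rose by 2.40 on the log2 scale (adjusted p = 0.0011). In LF+CR livers it read 739, 522 and 1772, against 1802, 1927 and 1421 in LF livers, groups that overlap at LF+CR 3. The restriction effect on Egfr differed by 3.33 between the diets (adjusted p = 0.000852).

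Among 12 other haem genes Urod and Ppox rose and Cpox fell in LF+CR against LF livers (log2 0.34, 0.24 and -0.47), and 0 passed the limma test in HF+CR against HF livers, where 3 had an unadjusted p under 0.05. Of 6 electron supply genes 0 passed in LF+CR and 0 in HF+CR, with 1 and 2 at an unadjusted p under 0.05. Among all 14198 genes 2646 had an unadjusted p under 0.05 in LF+CR and 3626 in HF+CR. After adjustment 5.57% and 6.09% of all genes passed. The AHR target Nqo1, a quinone reductase gene, rose by 0.96 in LF+CR (adjusted p = 0.0461) and fell by 1.17 in HF+CR on the log2 scale (adjusted p = 0.019), the only 1 of 7 genes of the AHR list to pass in either. Ccnd1, a cyclin gene induced when CAR drives liver growth, rose by 1.94 on the log2 scale in LF+CR (adjusted p = 0.0102), and no other of 9 CAR-linked growth genes passed in LF+CR. The LF+CR mice spread widely for both genes. Ccnd1 ranged from 647.9 to 2470 in LF+CR and from 272.8 to 285.9 in LF livers. Nqo1 ranged from 240.4 to 616.9 in LF+CR and from 159.1 to 188.9 in LF livers. Of 14 clock and PAR bZip genes Nfil3 alone fell, in LF+CR (log2 -1.14, adjusted p = 0.0464).

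The diets were compared in restricted mice, in runners and in mice with neither. In HF+CR against LF+CR livers 2 of 9 genes fell, Cyp2c38 and Cyp3a11, and none rose, against 8.94% of all genes, 5.62% higher and 3.32% lower. In HF+Ex against LF+Ex livers 2 of 9 rose, Cyp2b10 and Cyp2c38, against 1.72% of all genes, 1.06% higher and 0.662% lower. In HF against LF livers 0 of 9 passed by limma, against 0.902% of all genes, 0.627% higher and 0.275% lower, while 4 of 9 genes and 2314 of all 14198 had an unadjusted p under 0.05. The groups did not overlap for 5, 3 and 3 of the 9 genes in these comparisons, against 27.1%, 22.7% and 22.6% of all genes. Without the 4 arrays with pancreatic transcripts 2, 1 and 0 genes passed, and without the 3 outlying arrays 1, 1 and 0 did.

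The pericentral markers that passed the test were higher on the high-fat diet. Of 10, 3 rose in HF+CR against LF+CR livers (Gulo, Lect2 and Tbx3), 3 in HF+Ex against LF+Ex livers (Glul, Rhbg and Lect2) and 1 in HF against LF livers (Glul), and none fell. These counts stand against 5.62%, 1.06% and 0.627% of all genes higher. Their summed intensity was 29210 to 31300 in HF+CR and 24900 to 26590 in LF+CR livers, 27970 to 32670 in HF+Ex and 26490 to 26870 in LF+Ex livers, and 28450 to 31840 in HF and 27160 to 28070 in LF livers. The sums do not overlap in any of these pairs. Of the Kupffer, endothelial, stellate and periportal lists, Reln, a stellate marker, rose and Hsd17b13 fell in HF+CR against LF+CR livers, and Lyve1 rose in HF against LF livers. Sums of these lists lay apart in part. The Kupffer sum was lower in HF+CR (6469 to 7671) than in LF+CR livers (7914 to 14170). The periportal sum was lower and the stellate sum higher in HF+Ex than in LF+Ex and in HF than in LF livers, without overlap. The endothelial sum was higher in HF+Ex (4107 to 4640) than in LF+Ex livers (3885 to 4035). The other sums of these lists overlap. The part of these zones and cells in the diet comparisons was not tested.

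Cyp2c38 passed the test in 2 diet comparisons, in opposite directions. At 428, 626 and 417 in HF+CR against 1690.3, 1918 and 1701 in LF+CR livers it fell by 1.84 on the log2 scale (SE 0.18, adjusted p = 2.05e-05). At 1464, 1329 and 1293 in HF+Ex against 718, 645 and 845 in LF+Ex livers it rose by 0.88 on the log2 scale (SE 0.18, adjusted p = 0.0208). Neither pair overlaps. The call in restricted mice held under every alternative run, but that in runners was lost without LF+Ex 1, LF+Ex 2 or any 1 of the HF+Ex mice (adjusted p = 0.0505 to 0.0997) and without the outlying arrays (0.0522). In HF against LF livers the log2 fold change was 0.47 (adjusted p = 0.222), with LF 1 inside the range of the HF mice. Whether the diet effect in restricted mice differs from that in runners was not tested.

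Cyp3a11 fell by 0.55 on the log2 scale in HF+CR against LF+CR livers (SE 0.132, adjusted p = 0.0156), a call that was lost without LF+CR 2 (0.0696), HF+CR 1 (0.0692) or HF+CR 3 (0.0506). It was also lost without the 3 outlying arrays (0.0627) and in a fit on the compared groups only (0.106). It read 9305, 8919.9 and 10964 in HF+Ex livers, against 8351, 7407 and 7898 in LF+Ex livers, which do not overlap (log2 0.30, adjusted p = 0.282). The log2 fold change in HF against LF livers was 0.35 (adjusted p = 0.211). The gene was lower on the high-fat diet in restricted mice, and its fitted values were higher on that diet in the other 2 states without passing the test.

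Cyp2b10 read 387, 138 and 149 in HF+Ex livers, against 50.1, 54.1 and 52.6 in LF+Ex livers. All 3 LF+Ex mice lay under the dim threshold, so that only a bound on the group mean can be given. By that mean, which HF+Ex 1 raises, the gene was at least 2.01-fold higher in HF+Ex livers (adjusted p = 0.0211 for the fitted log2 fold change). HF+Ex 1, an array with pancreatic transcripts, stood far above the rest of its group, and the call was lost without it (0.0808), without LF+Ex 1 (0.102) or LF+Ex 3 (0.0632). It was also lost without the 4 pancreatic arrays (0.146), with the mean of its probe sets (0.0589) and in a fit on the compared groups only (0.0684). In HF+CR against LF+CR livers the log2 fold change was -1.11 (adjusted p = 0.055), and all HF+CR mice were under all LF+CR mice. Without HF+CR 2 the value was -1.47, past the threshold (adjusted p = 0.0213). In HF against LF livers it was 0.65 (adjusted p = 0.361), and the groups overlap at LF 2.

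**Figure D4:**
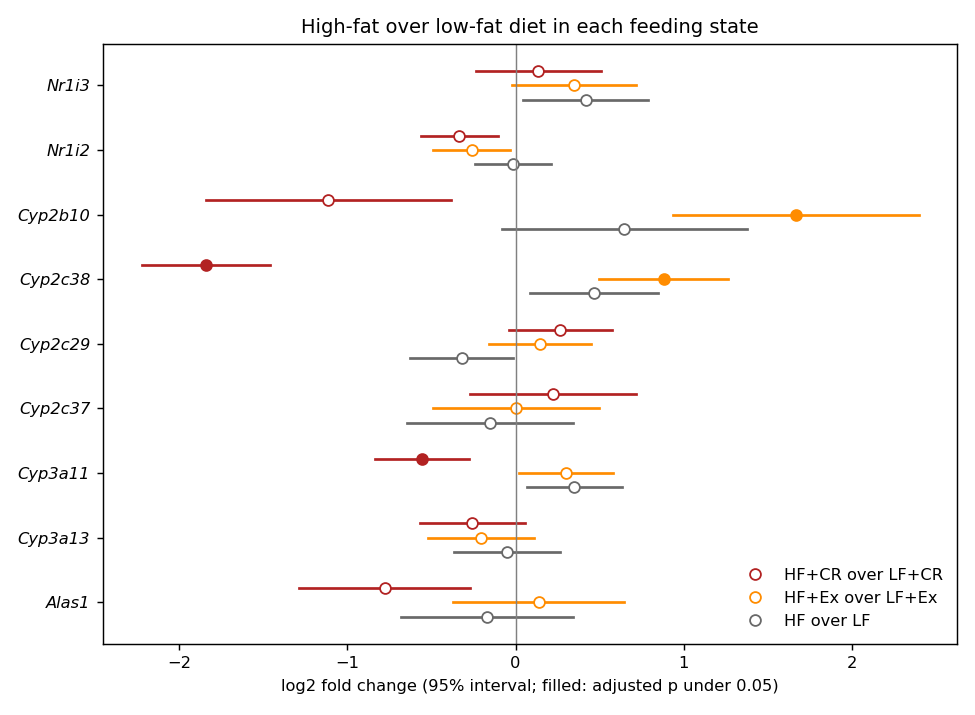
Log2 fold change of high-fat over low-fat diet (horizontal axis) for the 9 genes in restricted mice (red, HF+CR over LF+CR), runners (orange, HF+Ex over LF+Ex) and freely fed mice without a wheel (grey, HF over LF), with 95% intervals of the limma fit (n = 3 a group); filled points passed the test. Cyp2c38 lies at -1.84 in restricted mice and at 0.88 in runners; the value of Cyp2b10 in runners depends on the background, since all LF+Ex mice lay under the dim threshold.

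In HF against LF livers 4 genes had an unadjusted p under 0.05: Nr1i3 (log2 0.42), Cyp2c38 (0.47) and Cyp3a11 (0.35) were higher, and Cyp2c29 (-0.32) was lower. None passed after adjustment, the lowest adjusted p being 0.211. Of the related genes on the array, Cyp2b9 (log2 2.70, adjusted p = 0.000441), Gsta2 (1.60, adjusted p = 0.0191), the carboxylesterase gene Ces1g (0.97, adjusted p = 0.00402) and the export pump gene Abcc3 (0.58, adjusted p = 0.0483) rose in HF livers, and Egfr fell by 1.76 (adjusted p = 0.0215). In counts, 2 of 11 other P450 genes and 1 of 8 transporter genes rose, against 0.627% of all genes higher. The conjugation list gave 2 of 21, Gsta2 and Ces1g. Among 15 partner genes 1 fell, against 0.275% of all genes lower. From the haem, electron supply and AHR lists (12, 6 and 7 genes) 0 genes passed by limma, with 2, 1 and 2 at an unadjusted p under 0.05. Among all 14198 genes 2314 had an unadjusted p under 0.05.

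In HF+CR against LF+CR livers 5 of 11 other P450 genes fell and none rose, 5 of 21 conjugation genes fell and 2 rose, and 2 of 8 transporter genes fell and 1 rose, against 3.32% of all genes lower and 5.62% higher. Gstm3 fell by 1.62 (adjusted p = 0.017), Slco1a4 by 1.25 (adjusted p = 0.00539) and Nqo1 by 1.31 (adjusted p = 0.00664) on the log2 scale. Not all detoxification genes did so: Cyp1a2, an AHR target of the pericentral zone, rose by 1.26 (adjusted p = 0.00473) and the uptake carrier gene Slco1b2 by 0.50 (adjusted p = 0.0133). Ppargc1a, a coactivator that is known to raise Alas1 in fasting, fell by 0.64 (adjusted p = 0.0195), and Alas1 lay at -0.78 (adjusted p = 0.055). By group means Ppargc1a read 192 in LF+CR and 142 in LF livers, where Alas1 read 3584 and 4312. In HF+CR and HF livers Ppargc1a read 115 and 148, and Alas1 read 2044 and 3762. A link between these 2 genes was not tested. In HF+Ex against LF+Ex livers 3 of 11 other P450 genes, 2 of 21 genes of the conjugation list and 1 of 8 transporter genes rose. From the conjugation list 1 gene fell. These counts stand against 1.06% of all genes higher and 0.662% lower. The 2 risen genes of that list were Ces1g (log2 1.28, adjusted p = 0.000132) and Aldh1a1 (0.39, adjusted p = 0.0348). Neither encodes a conjugating enzyme. Abcc3 was higher by 0.76 (adjusted p = 0.00752).

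No gene of the 9 passed the limma test for running on either diet. In HF+Ex against HF livers 0 of 9 genes had an unadjusted p under 0.05, against 346 of 14198, and 0% of all genes passed after adjustment. In LF+Ex against LF livers 1 of 9 had an unadjusted p under 0.05, against 561 of 14198, and 0.00704% of all genes (1 gene, which was higher) passed. The difference of the running effects passed for 0.00704% of all genes (1 gene, lower on the high-fat diet), with 1 of 9 genes and 358 of 14198 at an unadjusted p under 0.05. The groups did not overlap for 4 of 9 genes in LF+Ex against LF livers, against 8.83% of all genes, and for 0 of 9 in HF+Ex against HF livers, against 8.09%.

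The gene nearest to a response to running was Cyp2c38, which read 718, 645 and 845 in LF+Ex livers, against 1555, 902 and 987 in LF livers. The LF+Ex mice lay under all LF mice, and LF 1 was far above the other LF mice (log2 -0.60, SE 0.18, adjusted p = 0.932). In HF+Ex livers it read 1464, 1329 and 1293, against 1345, 1722 and 1595 in HF livers (log2 -0.18). Cyp2b10 was also lower in every LF+Ex than in any LF mouse (adjusted p = 1.00), but all 3 LF+Ex mice and 2 of 3 LF mice lay under the dim threshold, so that no size is given for this difference or for that between the running effects.

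The 3 probe sets of Cyp2b10 were compared in LF+CR and LF livers. In LF+CR livers 1422257_s_at read 262, 191 and 135, against 72.7, 93.7 and 61.4 in LF livers, and 1451787_at read 221, 171 and 152 in LF+CR livers, against 113, 130.1 and 104 in LF livers. The groups do not overlap on either. All LF mice and all LF+Ex mice lay under the dim threshold on 1422257_s_at, so that it gives a bound, at least 1.88-fold higher in LF+CR than in LF livers (adjusted p = 0.0458 with all probe sets in the fit). The log2 fold change on 1451787_at was 0.57 (adjusted p = 0.11 in that fit), which did not pass, beside 1.52 on 1425645_s_at.

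In each of the 3 probe sets the highest arrays were HF+Ex 1 and LF+CR 1, both with pancreatic transcripts. LF+Ex 3 and LF 1, which also carry such transcripts, read 52.6 and 76.1 on 1425645_s_at, within their groups. In LF+CR against LF livers the log2 fold change was 1.22 without the 4 arrays, against 1.52 with them. Cyp2b9, a gene of similar sequence, ran by group means from LF+CR (2482) through HF (1819), HF+Ex (1720), HF+CR (728) and LF (282.5) to LF+Ex (81). On 1425645_s_at Cyp2b10 ran from LF+CR (288.5) through HF+Ex (224), HF (148), HF+CR (130) and LF (89.7) to LF+Ex (52.3). Whether probes of 1 gene picked up transcripts of the other was not tested.

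**Figure D5:**
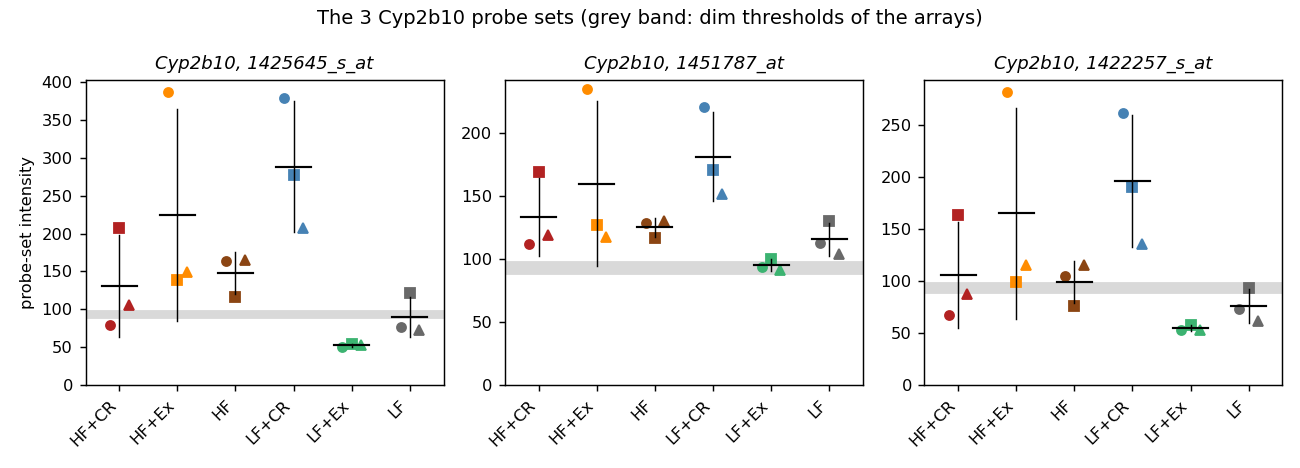
Intensity (linear axis from 0) of the 3 Cyp2b10 probe sets in the 6 groups, 1 point a mouse (circle, square and triangle for replicates 1, 2 and 3), with the mean as a bar and the SD as a line (n = 3); the grey band spans the dim thresholds of the arrays, 88.2 to 97.6. HF+Ex 1 and LF+CR 1 are the 2 highest arrays in every panel.

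Across the 18 arrays the genes of the set varied together only in part. The highest correlations of log2 values between them were 0.81 for Cyp2c38 with Cyp3a11, 0.74 for Nr1i2 with Alas1, 0.66 for Nr1i2 with Cyp3a13 and 0.65 for Cyp2c29 with Cyp2c37. After group means were taken out these were 0.57, 0.46, 0.32 and 0.79. The correlation was 0.05 for Nr1i3 with Cyp2b10 and 0.10 for Nr1i2 with Cyp3a11, each receptor's best known target. All values come from the same arrays, whose groups and whose quality they share, and are given as descriptions.

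Of all genes tested outside the set, those whose pattern over the 18 arrays was most like that of Cyp2c38 were D630004K10Rik, Nt5e and Slc22a27 (r = 0.91, 0.91 and 0.90), and for Cyp3a11 they were Tkfc, Gtdc1 and Nqo1 (0.93, 0.93 and 0.91). Cyp2b10 was most like Tmem185a, Cyp2c39 and Tmem97 (0.87, 0.86 and 0.86), and Cyp2c29 most like Nsl1, Cyp2c50 and Cnksr1 (0.87, 0.86 and 0.84). Nr1i3 was most like Ppp1r16a, Cdk18 and Dpys (0.83, 0.81 and 0.80), and Alas1 most like Mat1a, Rapgef1 and Ctsf (0.88, 0.83 and 0.82). Within groups the likeness was strongest for Cyp2c29 with Cyp2c50 (0.93) and weakest for Cyp2b10 with Tmem97 (0.45). Cyp2c39 and Cyp2c50 are P450 genes of the same chromosome cluster as Cyp2c29 and Cyp2c38.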

How the data were processed

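Liver RNA of 18 mice was measured on Affymetrix Mouse Genome 430 2.0 arrays; per the labels' protocols, it was isolated with Trizol and hybridised as biotinylated cRNA. Each deposited value is the intensity of a probe set, not on a log scale, as summarised by the authors; their tool and scaling are not given in the sources at hand. Log2 medians of the arrays spanned 0.153, within a limit of 0.2, and the values were not normalized again.

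Of 45037 probe sets left after 64 controls, 34945 carried 1 gene symbol, 932 several and 9160 none in the platform annotation; only the first were used. The brightest probe set by mean stood for a gene, and 14198 genes above the 40th percentile of an array on at least 3 arrays were tested. A limma 3.58.1 model in R 4.3.3 with a mean for each of 6 groups was fitted to log2(intensity + 16) (12 residual and 3.61 prior degrees of freedom), with 7 contrasts of pairs of groups and 2 interactions, Benjamini-Hochberg adjustment over all genes and calls at 0.05. SD is over the 3 arrays of a group, and SE is that of limma. The series' design text gives 3 mice a group, taken here as 1 per array. A bound ("at least") sets the bright group's mean against the dim thresholds of the other group's arrays. It holds for the group mean and not for each mouse, and the adjusted p beside it is that of the fitted log2 fold change. The model was tested on simulated data.

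The genes and the 17 lists (9 of pathways, 8 of cell types) were chosen with earlier results of these data known. Of 205 list genes 33 had no probe set of their own and 9 were too dim. The text names every gene of the set, up to 3 changed genes of each pathway list in a comparison by size of the log2 fold change, the 3 genes most like 6 of the set by Pearson correlation, and the genes behind small counts. Members of P450 and transferase families can resemble each other in sequence, and probes were not aligned here. Promoter stretches come from RefSeq (GRCm38.p6) and were aligned with Biopython 1.88 (match 1, mismatch -1, gap opening -5); figures were drawn with matplotlib 3.10.9.

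Alternatives were quantile normalization, centring on the median, offsets of 1 and 64, no dim filter or the 60th percentile, the mean of a gene's probe sets, every probe set, array weights, a fit on the 2 or 4 groups compared, the replicate number as a block, and leaving out 1 array at a time. Leaving out the 4 arrays with pancreatic transcripts, leaving out the 3 outlying arrays and a clock covariate were added after the data had been seen. Results of the alternatives are given for the 9 genes and for counts of all genes, not for list genes.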

Additional observations from a re-analysis of the deposited data

Results flagged for a closer look

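The effect of calorie restriction differed between the diets for 3 genes by the test of the difference itself, given as the effect on the high-fat diet minus that on the low-fat diet (limma). The difference was -2.31 for Cyp2c38 (adjusted p = 9.88e-05), -1.76 for Cyp2b10 (adjusted p = 0.0443) and -0.905 for Cyp3a11 (adjusted p = 0.011). The Cyp2b10 value depends in part on the background. The Cyp2b10 call was lost when any 1 of 8 arrays was left out and in 6 of 14 other alternatives, and 2 of its 3 probe sets did not pass (-0.51 on 1451787_at), whereas the Cyp2c38 and Cyp3a11 calls held in every alternative run. Every HF+CR mouse lay under every HF mouse for Cyp2c38 and Cyp3a11, and every LF+CR mouse above every LF mouse for all 3 genes, while HF+CR and HF mice overlap for Cyp2b10. Groups of 3 arrays are too small for a search for outlying samples within a group. The 3 arrays called outlying here are only the farthest ones along the first principal component.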

How the results depend on the processing

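Of 1728 refitted log2 fold changes of the 9 genes, 1634 stayed on their side of the threshold (65 of these changed sign without passing either way), 65 were no longer past it, 29 newly passed it and 0 reversed. The falls of Cyp2c38 in HF+CR against HF and LF+CR livers and the restriction differences of Cyp2c38 and Cyp3a11 passed in every alternative. Counts are of the 9 genes and then of all genes.

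For HF+CR against HF livers the main counts were 3 and 864. The count of the 9 was 1 with the mean of probe sets, 6 with array weights and 5 with the clock covariate, and the count of all genes was 2178 with array weights, 518 without the arrays with pancreatic transcripts, 547 without the 3 outlying arrays and 1384 with the clock covariate. Leaving out 1 array gave 1 to 2 and 285 to 912. For LF+CR against LF livers (2 and 791) the count of the 9 was 1 with centring, with no dim filter, with the compared groups only, with the replicate block and without the pancreatic arrays, and 0 without the outlying arrays. That of all genes was 1291 with every probe set, 1436 with array weights, 190 with the compared groups only and 241 without the pancreatic arrays, and 1 array left out gave 0 to 2 and 447 to 915. For the restriction difference (3 and 815) all genes gave 1280 with every probe set, 1592 with array weights, 287 without the pancreatic arrays, 371 without the outlying arrays and 1395 with the clock covariate, and 1 array left out gave 2 to 3 and 389 to 1038.

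For HF+CR against LF+CR livers (2 and 1269) the count of the 9 was 4 at the 60th percentile and with array weights and 1 without the outlying arrays. That of all genes was 2176 with every probe set, 2040 with array weights, 437 with the compared groups only and 640 without the pancreatic arrays, and 1 array left out gave 1 to 3 and 793 to 1293. For HF+Ex against LF+Ex livers (2 and 244) the count of the 9 was 1 with the mean of probe sets, the compared groups only, without the pancreatic and without the outlying arrays. That of all genes was 1233 with array weights, 132 with the compared groups only and 54 without the pancreatic arrays, and 1 array left out gave 0 to 1 and 77 to 219. For HF against LF livers (0 and 128) array weights gave 2 and 1006, and all genes gave 54 with the compared groups only, 72 with the replicate block, 13 without the pancreatic arrays and 232 with the clock covariate, and 1 array left out gave 0 and 23 to 201.

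For LF+Ex against LF livers (0 and 1) all genes gave 3 with centring, 7 with array weights, 6 without the outlying arrays, and 0 with the mean of probe sets, the compared groups only, without the pancreatic arrays, with the clock covariate and with 1 array left out. For HF+Ex against HF livers 1 array left out gave 0 and 0 to 1. For the running difference (0 and 1) all genes gave 2 with array weights and 0 with quantile normalization, the mean of probe sets, the replicate block and without the pancreatic arrays, and 0 to 1 with 1 array left out. The causes of these shifts were not tested. The replicate numbers did not pair the arrays: correlations of same-numbered deviations ran from -0.412 to 0.337 (median -0.0394, 45 pairs), against a median of 0.035 for 90 other pairs, so the block is no test of pairing. Signal over background limited Cyp2b10, with 6 of 18 arrays under the dim threshold on its brightest probe set.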
